A study of Rattus norvegicus with 9 samples.

Results

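The 9 genes described here handle iron inside the cell or set its sensitivity to ferroptosis, and they were taken by symbol from the gene column of the deposited count table, which holds 22324 genes. They are Tfrc, Fth1, Ftl1, Ncoa4, Aco1, Ireb2, Lcn2, Gpx4 and Acsl4, and all 9 passed the filter on low counts that left 14956 genes. Sequencing of poly(A) RNA gave 9 libraries, 3 in each of 3 groups, from rat primary cultures of nucleus pulposus cells, which fill the soft centre of the disc between vertebrae. BNPMT cells also had senescence induced by doxorubicin and, per their labels, an added BNPMT intervention, of which the labels give no full name, dose or timing. SEN cells had doxorubicin-induced senescence, made with 200 nM of this DNA-damaging drug for 24 h and then 6 days in new medium. NC cells were taken as the untreated control from the title and the series' design text, although the doxorubicin protocol stands on every sample. All 3 groups share the wild-type genotype, high-glucose medium and 10% serum. The labels give no age, sex or strain of the rats and do not say that replicates came from separate cultures, so the spread behind each p-value is that of these libraries and may be technical. In bulk RNA, fewer cells of a type and less RNA per cell cannot be told apart.

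Cells take up iron bound to transferrin through the transferrin receptor, encoded by Tfrc, and store the surplus in ferritin, a shell of heavy (Fth1) and light (Ftl1) chains. The autophagy receptor encoded by Ncoa4 carries ferritin to the lysosome, which frees the iron. When iron is scarce, the iron regulatory proteins encoded by Aco1 and Ireb2 bind iron-responsive elements, stem-loops that stabilise Tfrc mRNA and block translation of both ferritin mRNAs, so ferritin protein can change without its mRNA. Ferroptosis is a cell death driven by iron-dependent peroxidation of membrane lipids. The peroxidase encoded by Gpx4 reduces these lipid peroxides, while the enzyme encoded by Acsl4 loads membranes with the polyunsaturated fatty acids that are peroxidised.

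The promoters of 3 genes are shown because their RNA carried the most distinct patterns described below: Tfrc and Acsl4 were highest in SEN, and Lcn2, which encodes the iron-sequestering secreted protein lipocalin 2, was highest in BNPMT. Each sequence is the 250 bases before the start of the gene from RefSeq on the build GRCr8, which differs from the build of the deposited files, mRatBN7.2. The windows are chr11:81690319-81690568 for Tfrc, chrX:110803262-110803511 for Acsl4 and chr3:36081781-36082030 for Lcn2, all on the minus strand and printed 5′ to 3′. Capitals mark ACGTG, the core of hypoxia-response elements, and TGACGT, the core of cyclic AMP response elements, in Tfrc, TGACGT in Acsl4, and a loose form of the NF-kappaB site (GGG, any 5 bases, CC) in Lcn2.
Tfrc: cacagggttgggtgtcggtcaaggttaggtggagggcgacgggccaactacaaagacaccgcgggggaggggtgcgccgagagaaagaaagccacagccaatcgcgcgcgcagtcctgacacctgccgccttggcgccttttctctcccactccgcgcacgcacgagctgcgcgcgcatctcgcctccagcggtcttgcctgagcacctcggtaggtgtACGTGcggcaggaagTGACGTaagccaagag
Acsl4: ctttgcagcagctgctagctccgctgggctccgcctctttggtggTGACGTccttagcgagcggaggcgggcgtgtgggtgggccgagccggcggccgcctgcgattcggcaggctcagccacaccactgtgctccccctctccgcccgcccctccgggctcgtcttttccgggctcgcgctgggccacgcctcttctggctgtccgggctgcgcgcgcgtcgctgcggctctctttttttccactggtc
Lcn2: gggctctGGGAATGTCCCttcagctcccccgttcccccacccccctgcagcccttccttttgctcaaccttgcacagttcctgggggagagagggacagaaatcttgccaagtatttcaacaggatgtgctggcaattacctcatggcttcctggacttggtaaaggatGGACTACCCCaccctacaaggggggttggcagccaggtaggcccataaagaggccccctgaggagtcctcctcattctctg
The Tfrc window held ACGTG beginning 31 bases and TGACGT beginning 16 bases before the start, and the Acsl4 window held TGACGT 205 bases before it. The Lcn2 window held the loose NF-kappaB form on both strands of 1 run, beginning 243 and 242 bases before the start and overlapping, and once more at 81 bases. Searched on both strands, ACGTG occurred in 16.6% of 33469 windows of that length, TGACGT in 6.95% and the loose NF-kappaB form in 42.3%. Of the 9 genes, 7 had a window, and each held the loose NF-kappaB form at least once. ACGTG also occurred upstream of Ncoa4 and TGACGT upstream of Gpx4, whose RNA had other patterns. These matches describe the letters and were not tested for binding.

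Total counts per library were 35094282 to 41971877 in BNPMT, 31206834 to 38391586 in SEN and 34514440 to 41873790 in NC. Levels are given as CPM, counts scaled to the library's total, and levels of different genes are compared as the authors' FPKM, which also divides by transcript length. Log2 changes are scaled by trimmed means of M-values (TMM), whose factors averaged 1.14 in BNPMT, 0.802 in SEN and 1.097 in NC. With total counts alone, the median log2 change of all genes was 0.52 in BNPMT against SEN, -0.46 in SEN against NC and 0.06 in BNPMT against NC. TMM brought these medians to 0.02, -0.01 and 0.00. The share of genes called higher and lower in SEN against NC was 37.6% and 38.5% under TMM and 24.5% and 56.9% with total counts, and in BNPMT against SEN 40.7% and 39.9% under TMM and 57.3% and 25.8% with total counts. For BNPMT against NC the shares were 26.3% and 26.5% under TMM and 30.2% and 22.5% with total counts. BNPMT 1 and SEN 1 deviated from their group along transcript length in the opposite direction to its other libraries. The Spearman correlation, across genes, between deviation from the group mean and length was 0.51 for BNPMT 1, -0.43 for BNPMT 2, -0.32 for BNPMT 3, -0.42 for SEN 1, 0.26 for SEN 2 and 0.23 for SEN 3. The summed level of 11 nucleus pulposus markers was 2437 to 2658 CPM in BNPMT, 7243 to 7373 CPM in SEN and 5258 to 5530 CPM in NC, most of it Col2a1. Col2a1, Acan and Krt8 followed the order of the sum, and Krt18 and Krt19 had few counts. Several other markers of that list did not follow it. Pax1 had 149 CPM in BNPMT, 52.7 CPM in SEN and 135 CPM in NC. Foxf1 had 29.2 CPM in BNPMT, 17.1 CPM in SEN and 30.6 CPM in NC. Cd24 was higher in BNPMT than in NC, at 42.2 CPM in BNPMT, 47.2 CPM in SEN and 29.9 CPM in NC. Car12 had the same order as Cd24, on only 21 counts in BNPMT, 42 in SEN and 9 in NC. Sox9 was level between SEN (30.97 CPM) and NC (31.5 CPM). The notochordal marker Tbxt had only 5 counts in BNPMT, 5 in SEN and 11 in NC.

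An adjusted p below 0.05 in edgeR's quasi-likelihood test, with Benjamini-Hochberg adjustment over all genes, counts as passing. In BNPMT against SEN all 9 genes passed, 4 higher and 5 lower, where 80.6% of all genes passed. In SEN against NC 6 were higher, 2 lower and 1 did not pass, where 76.1% of all genes passed. In BNPMT against NC 5 were higher, 2 lower and 2 did not pass, where 52.8% of all genes passed. The members' counts are thus near what all genes show in BNPMT against SEN and in SEN against NC. In BNPMT against NC they are above it, with 5 higher where 26.3% of all genes were higher. Fth1, Ftl1, Gpx4 and Lcn2, all higher there, are among the shortest genes, whose median log2 change in that comparison was 0.48. All these counts are read only as a description. With total counts 83.1%, 81.4% and 52.7% of all genes passed in these comparisons, and with the trend along transcript length taken out 82.9%, 81% and 46.2% did. CPM did not overlap between groups for 7 members in BNPMT against SEN, where this held for 82.5% of all genes, for 8 in SEN against NC, beside 83.4%, and for 7 in BNPMT against NC, beside 61.7%. The median log2 change of the 9 was -0.19, 0.49 and 0.72 in these comparisons, which share their libraries.

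**Figure D1:**
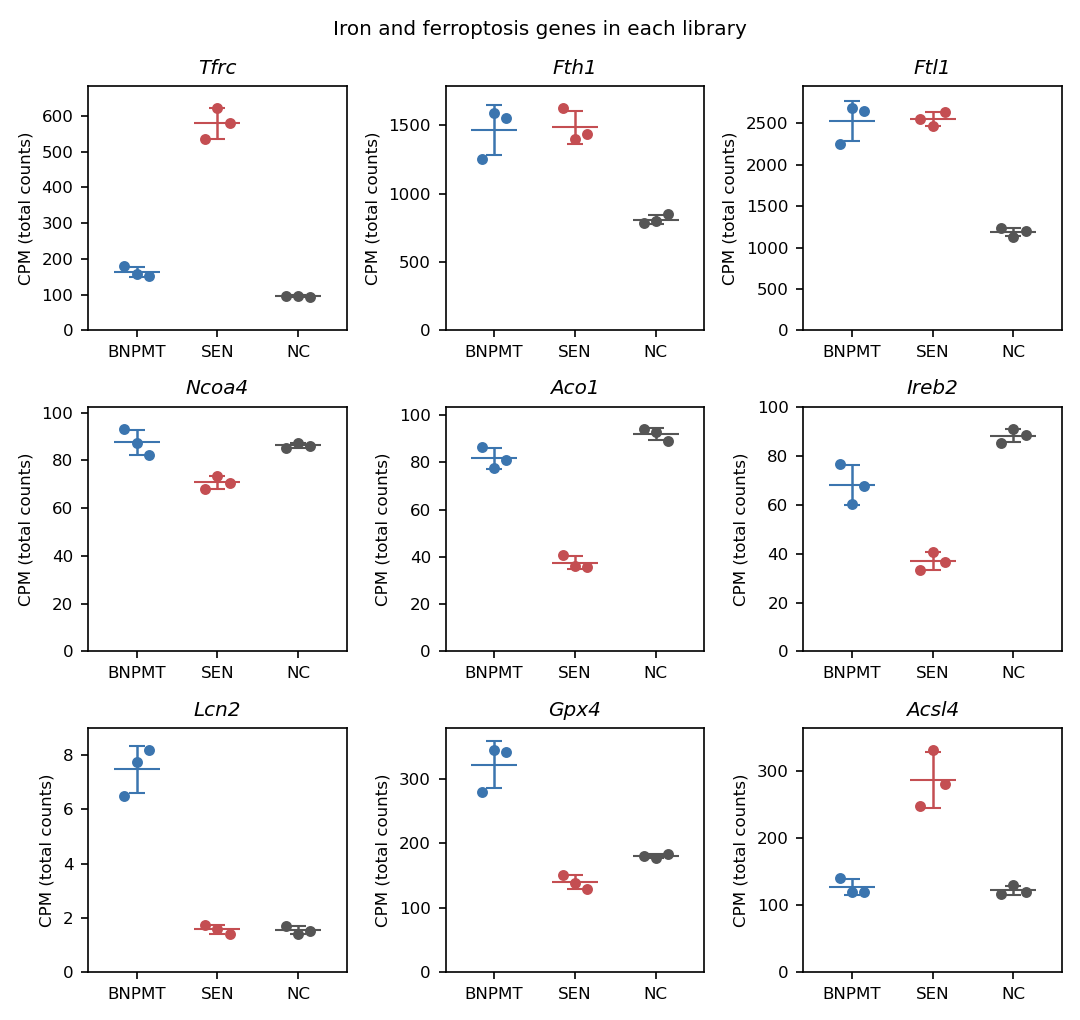
Each panel shows one gene, with CPM per total count on the vertical axis and the groups BNPMT, SEN and NC on the horizontal axis. Points are libraries, and the bar and whiskers are the mean and SD of 3 libraries. Tfrc and Acsl4 stand highest in SEN, Lcn2 and Gpx4 in BNPMT, and Aco1 and Ireb2 in NC.

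Tfrc, the gene of iron uptake, changed most in SEN. It had 179.97, 157 and 153 CPM in the BNPMT libraries, against 535, 621 and 580.4 CPM in the SEN libraries and 97.4, 96.0 and 93.4 CPM in the NC libraries. The 3 groups did not overlap, and SEN lay far above both others. The log2 change was 3.05 ± 0.07 (SE, n = 3 each) in SEN against NC (adjusted p = 1.88e-13), an 8.28-fold rise under TMM. In BNPMT, Tfrc fell by 2.33 ± 0.07 on the log2 scale against SEN (adjusted p = 1.85e-12). It nevertheless remained above NC by a log2 change of 0.72 ± 0.07 (adjusted p = 2.89e-06). Tfrc was thus ordered SEN, BNPMT, NC from high to low, and each step passed the test. Over the 20 alternatives its log2 change stayed between 2.53 and 3.11 in SEN against NC, and between 0.65 and 0.90 in BNPMT against NC.

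Ferritin, the iron store, was among the most abundant messages in every group. By mean FPKM over the 22324 genes, Ftl1 ranked 13 in BNPMT, 13 in SEN and 38 in NC, and Fth1 ranked 33 in BNPMT, 31 in SEN and 62 in NC. Fth1 had 1256, 1592 and 1556 CPM in BNPMT, 1626, 1397 and 1435 CPM in SEN, and 784, 798 and 850.3 CPM in NC. Every BNPMT and SEN library lay above every NC library, and the BNPMT and SEN libraries overlapped. Fth1 rose by a log2 change of 1.33 ± 0.09 in SEN against NC (adjusted p = 1.18e-08) and by 0.81 ± 0.09 in BNPMT against NC (adjusted p = 1.2e-05). With total counts the rise in SEN was 0.87, and with the trend along transcript length taken out the rises were 0.82 in SEN and 0.40 in BNPMT, all of them passing.

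The light chain followed the same order. Ftl1 had 2249, 2684 and 2656 CPM in BNPMT, 2555, 2473 and 2639 CPM in SEN, and 1233, 1132 and 1196 CPM in NC. Again every BNPMT and SEN library lay above the NC libraries, with BNPMT and SEN overlapping. Its log2 change was 1.56 ± 0.07 in SEN against NC (adjusted p = 1.98e-10) and 1.04 ± 0.07 in BNPMT against NC (adjusted p = 1.85e-07), the second being 0.65 with the length trend taken out. Between BNPMT and SEN the answer rested on the scale. Under TMM both chains were lower in BNPMT, by log2 changes of -0.52 ± 0.09 for Fth1 (adjusted p = 0.000108) and -0.52 ± 0.07 for Ftl1 (adjusted p = 1.24e-05). With total counts both changes were -0.02 (adjusted p = 0.849 for Fth1 and adjusted p = 0.837 for Ftl1). The median of all genes was then 0.52, so both chains lay below genes in general on that scale too. The fits on FPKM gave no call either, and in CPM the libraries of both groups overlapped. FPKM and CPM share the library scaling of total counts, so these are not separate checks. Without SEN 1 and BNPMT 1 the Fth1 change was -0.33 and passed.

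Ferritin genes have near-identical copies, and reads can be split between them. The table lists 8 further light chain rows, whose summed counts were 1.63% to 1.65% of the Ftl1 count in BNPMT, 1.69% to 1.95% in SEN and 1.62% to 1.72% in NC. All 8 were higher in SEN against NC, 7 were higher in BNPMT against NC and 7 lower in BNPMT against SEN, with median log2 changes of 1.78, 1.101 and -0.71. In each of the last 2 comparisons 1 row did not pass, and all these calls are under TMM only. Whether the reads of these rows come from Ftl1 was not tested. The 5 other ferritin rows, of heavy and related chains, had at most 5 counts in a library.

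Ncoa4, which sends ferritin to the lysosome, hardly moved. It had 93.1, 87.4 and 82.5 CPM in BNPMT, 68.0, 73.7 and 70.8 CPM in SEN, and 85.4, 87.5 and 86.3 CPM in NC. The SEN libraries were lowest in CPM, while BNPMT and NC overlapped. Its direction turned with the scale. In SEN against NC the log2 change was 0.17 ± 0.06 under TMM (adjusted p = 0.0169), but -0.29 on total counts (adjusted p = 0.000484). Taking the length trend out gave 0.04 (adjusted p = 0.408), and dropping the filter on low counts ended the call too (adjusted p = 0.19). Leaving out NC 1 (adjusted p = 0.0785), NC 3 (adjusted p = 0.0714) or SEN 2 (adjusted p = 0.074) also ended the TMM call. In BNPMT against SEN it was -0.19 ± 0.06 under TMM (adjusted p = 0.00618), 0.31 with total counts (adjusted p = 0.000251), and not called without BNPMT 3 (adjusted p = 0.053) or without the filter (adjusted p = 0.0798). With total counts the median of all genes was -0.46 in SEN against NC and 0.52 in BNPMT against SEN. Ncoa4 thus lay above the first median and below the second. In BNPMT against NC the log2 change of Ncoa4 was -0.03 ± 0.06 (adjusted p = 0.693), within -0.07 and 0.04 over the 20 alternatives.

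Both iron regulatory protein genes fell in SEN. Aco1, whose product is also the cytosolic aconitase when it carries an iron-sulfur cluster, had 86.5, 77.7 and 80.9 CPM in BNPMT, 40.9, 36.2 and 35.7 CPM in SEN, and 94.0, 93.0 and 89.0 CPM in NC. The 3 groups did not overlap, with SEN far below the others. Ireb2, whose product is degraded when iron is plentiful, had 76.7, 60.2 and 67.8 CPM in BNPMT, 33.4, 40.6 and 36.8 CPM in SEN, and 85.5, 91.0 and 88.4 CPM in NC. Its groups did not overlap either, and BNPMT lay between the others. In SEN against NC, Aco1 fell by 0.84 ± 0.07 on the log2 scale (adjusted p = 5.82e-08) and Ireb2 fell by 0.81 ± 0.08 (adjusted p = 9.28e-07). With total counts the changes were -1.29 and -1.26, beside a median of -0.46 over all genes.

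In BNPMT both were higher than in SEN, by log2 changes of 0.62 ± 0.07 for Aco1 (adjusted p = 1.2e-06) and 0.38 ± 0.08 for Ireb2 (adjusted p = 0.000833). With total counts those were 1.12 and 0.89, beside a median of 0.52 over all genes. Without SEN 1 and BNPMT 1 the Ireb2 change was 0.24. Against NC both were lower in BNPMT, Aco1 by a log2 change of -0.22 ± 0.06 (adjusted p = 0.0112) and Ireb2 by -0.42 ± 0.08 (adjusted p = 0.000794), the second being -0.22 with the length trend taken out. The order NC, BNPMT, SEN from high to low held for both genes, and it is the reverse of the order of Tfrc.

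Gpx4, the lipid peroxide reductase, was highest in BNPMT. It had 280.2, 344 and 341 CPM in BNPMT, 151, 139 and 129.8 CPM in SEN, and 180.3, 177 and 183 CPM in NC. All BNPMT libraries lay above all others, and in CPM the SEN libraries lay below NC. The log2 change was 0.70 ± 0.08 in BNPMT against SEN (adjusted p = 3.14e-06). With total counts it was 1.199, beside a median of 0.52 over all genes. Against NC it was 0.79 ± 0.08 (adjusted p = 7.61e-06), or 0.44 once the length trend was taken out, still passing (adjusted p = 2.07e-06). In SEN against NC the log2 change was 0.09 ± 0.08 under TMM and did not pass (adjusted p = 0.332). Total counts gave a lower level in SEN (log2 change -0.36, adjusted p = 0.000763). Taking the length trend out also lowered it (log2 change -0.27, adjusted p = 7.22e-05). The median log2 change of all genes in SEN against NC was itself -0.46 on total counts and -0.25 after removal of that trend. Gpx4 thus lay above the first median and near the second, so neither fit shows a fall beyond that of genes in general.

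Acsl4, the driver on the other side of lipid peroxidation, was highest in SEN. It had 141, 120.4 and 120.2 CPM in BNPMT, 249, 331 and 280.45 CPM in SEN, and 117, 129.9 and 119 CPM in NC. The SEN libraries stood above all others, and BNPMT and NC overlapped. Its log2 change was -1.68 ± 0.09 in BNPMT against SEN (adjusted p = 1.08e-09) and 1.68 ± 0.09 in SEN against NC (adjusted p = 1.23e-09). Between BNPMT and NC the log2 change was 0.01 ± 0.09 (adjusted p = 0.975), between -0.07 and 0.29 over the 20 alternatives. At the upper end, with the length trend taken out, Acsl4 was called higher in BNPMT than in NC (adjusted p = 0.00143).

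Lcn2, whose product binds iron-carrying siderophores and is secreted in inflammation, was raised in BNPMT. It had 6.51, 7.72 and 8.17 CPM in BNPMT, against 1.75, 1.60 and 1.41 CPM in SEN and 1.71, 1.41 and 1.53 CPM in NC. The BNPMT libraries lay above all others, and SEN and NC overlapped. These are low levels, resting on 886 counts in the BNPMT libraries, 167 in SEN and 180 in NC. The log2 change was 1.73 ± 0.16 in BNPMT against SEN (adjusted p = 2.2e-07) and 2.22 ± 0.16 in BNPMT against NC (adjusted p = 2.55e-07), and never below 1.65 and 1.78 over the alternatives. The change in SEN against NC was 0.49 ± 0.18 under TMM (adjusted p = 0.0238), but 0.04 on total counts (adjusted p = 0.834). The median of all genes on total counts was -0.46. Taking the length trend out ended that call too (adjusted p = 0.937), as did no filter on low counts (adjusted p = 0.0591). It was not called without NC 2 (adjusted p = 0.0832), NC 3 (adjusted p = 0.0614), SEN 1 (adjusted p = 0.0978) or SEN 2 (adjusted p = 0.0502).

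Neutrophils and macrophages are rich in LCN2 and in iron genes, so their markers were read beside these genes. Of 9 neutrophil markers 6 were matched by symbol, with a summed level of 0.0239 to 0.0953 CPM in BNPMT, 0.104 to 0.396 CPM in SEN and 0.0247 to 0.0579 CPM in NC, and Mpo and Elane had 0 counts in BNPMT. Of 8 macrophage markers 5 were matched, and their sum was 16.3 to 18.4 CPM in BNPMT, 29.4 to 33.2 CPM in SEN and 11.2 to 12.6 CPM in NC. Within that list Itgam had 0 counts in BNPMT, 417 in SEN and 0 in NC, Cd68 had 63 in BNPMT, 2379 in SEN and 52 in NC, and Adgre1 had 0 in BNPMT, 0 in SEN and 1 in NC. Cd14 went the other way and made up most of the BNPMT and NC sums, at 16.6 CPM in BNPMT, 4.04 CPM in SEN and 11.4 CPM in NC. The fifth matched marker, Csf1r, had 4 counts in BNPMT, 43 in SEN and 7 in NC. All 5 endothelial markers were matched, with sums of 0.981 to 1.51 CPM in BNPMT, 4.95 to 5.38 CPM in SEN and 1.04 to 1.55 CPM in NC, and of them Pecam1 had 3 counts in BNPMT, 423 in SEN and 2 in NC. Erythroid markers, 5 of 8 matched, summed to 0.313 to 0.453 CPM in BNPMT, 0.224 to 0.365 CPM in SEN and 0.0869 to 0.334 CPM in NC. The part of the macrophage and endothelial markers in the SEN levels of Tfrc, Fth1, Ftl1 and Acsl4 was not tested.

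**Figure D2:**
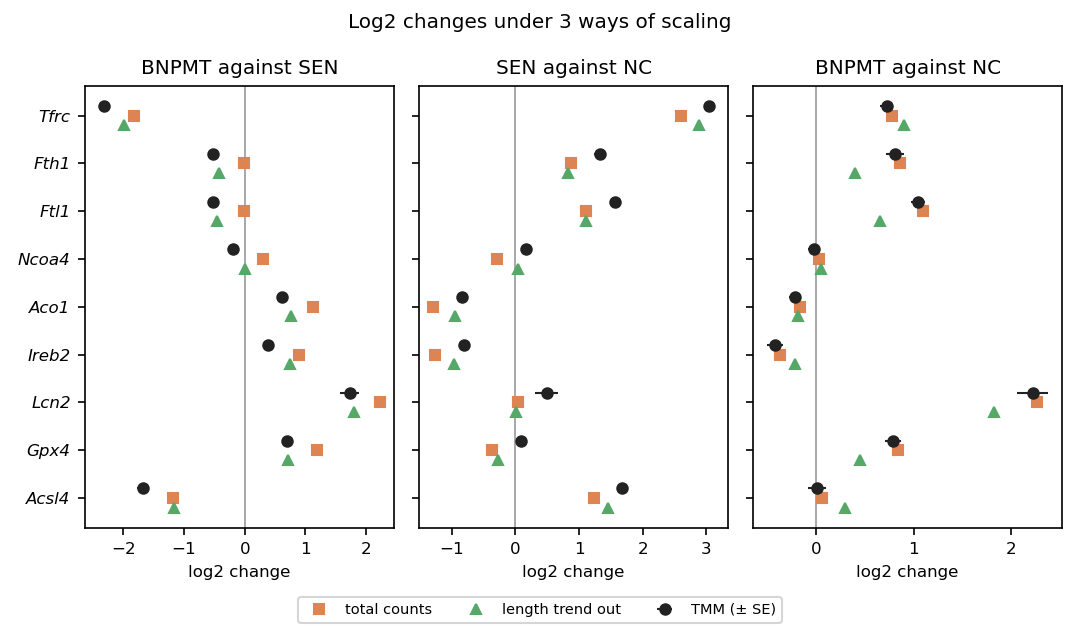
Panels show the 3 comparisons, with the log2 change on the horizontal axis and the 9 genes down the page. Circles are TMM-scaled changes with their SE, squares use total counts and triangles have the length trend taken out. Ncoa4 lies on both sides of 0 in all 3 panels, and Gpx4 in SEN against NC, while the other genes keep their side in each panel.

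Ratios of 2 genes within one library do not depend on how libraries are scaled, although they still depend on transcript length. The log2 ratio of Tfrc to Fth1 FPKM was -5.51, -6.05 and -6.05 in BNPMT, -4.31, -3.88 and -4.01 in SEN, and -5.72, -5.76 and -5.90 in NC. Uptake relative to storage RNA was thus highest in all SEN libraries, with BNPMT and NC overlapping. The ratio of Ncoa4 to Fth1 averaged -6.27 ± 0.27 in BNPMT, -6.60 ± 0.17 in SEN and -5.44 ± 0.06 in NC (SD, n = 3 each, log2), so every BNPMT and SEN library had less Ncoa4 per Fth1 message than any NC library. Acsl4 over Gpx4 was -3.80, -4.32 and -4.31 in BNPMT, -2.09, -1.56 and -1.70 in SEN, and -3.43, -3.25 and -3.42 in NC. Its 3 groups did not overlap, with SEN highest and BNPMT lowest. In BNPMT against NC the median log2 change was -0.29 among genes about as long as Acsl4 and 0.48 among those as short as Gpx4. The part of length in the lower BNPMT ratio was not tested. The other ratios moved less: Fth1 over Ftl1 averaged -0.64 ± 0.05 in BNPMT, -0.64 ± 0.12 in SEN and -0.40 ± 0.09 in NC, and Aco1 over Ireb2 averaged 1.04 ± 0.10 in BNPMT, 0.80 ± 0.24 in SEN and 0.83 ± 0.07 in NC.

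**Figure D3:**
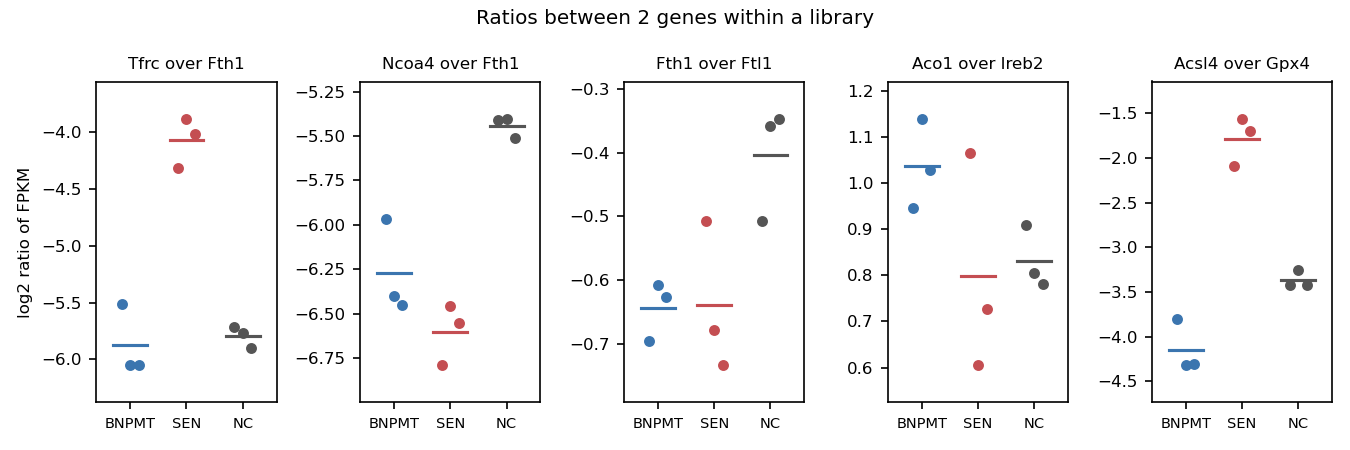
Each panel shows the log2 ratio of the FPKM of 2 genes on the vertical axis for the groups BNPMT, SEN and NC. Points are libraries and lines are means of 3. The SEN libraries lie highest for Tfrc over Fth1 and for Acsl4 over Gpx4, and the NC libraries for Ncoa4 over Fth1.

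Some of the genes are short and others long, and length moved with the comparison of BNPMT and NC. Over all 14956 genes, the Spearman correlation of the log2 change with transcript length was -0.16 in BNPMT against SEN, -0.03 in SEN against NC and -0.48 in BNPMT against NC, a description across genes that share the libraries. Fth1 (828 bases), Lcn2 (874), Ftl1 (916) and Gpx4 (1141) fell in the shortest of 10 length bins, from 154 to 1201 bases, whose median log2 change in BNPMT against NC was 0.48. All 4 lay above that median. Tfrc (5413 bases) and Ireb2 (5930) fell in the bin of 4915 to 6336 bases, with a median of -0.19, and Acsl4 (7985) in the bin of 6337 to 8805 bases, with a median of -0.29. Against those medians Tfrc at 0.72 stood far above its bin, and Ireb2 at -0.42 below it. The part of length in these changes was not tested beyond the fits with its trend taken out.

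**Figure D4:**
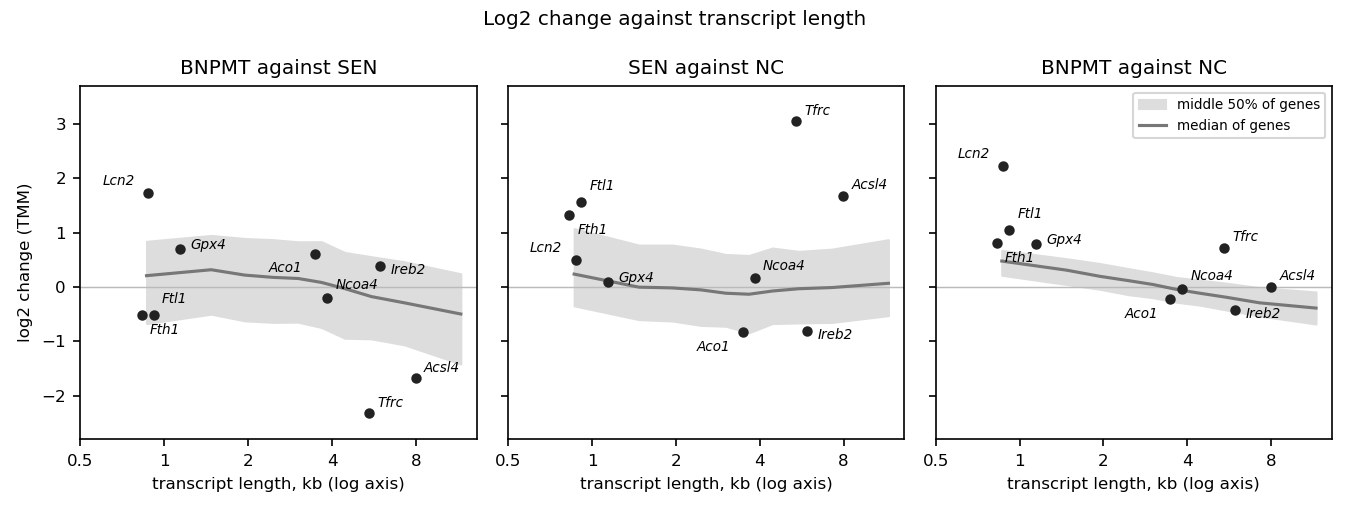
Panels show the 3 comparisons, with transcript length on a log axis and the TMM-scaled log2 change on the vertical axis. The line is the median of all genes in each of 10 length bins, the band holds the middle 50% of genes, and points are the 9 genes. In BNPMT against NC the median falls from 0.48 for the shortest genes to -0.39 for the longest.

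A wider set of 119 genes in 5 lists placed these results in their pathways, leaving out the 9 genes, and 108 were tested. In BNPMT against SEN 40 of them were higher and 53 lower, where 40.7% of all genes were higher and 39.9% lower. In SEN against NC 55 were higher and 37 lower, beside 37.6% and 38.5% of all genes. In BNPMT against NC 41 were higher and 27 lower, beside 26.3% and 26.5%. The median log2 changes of the list genes were -0.19, 0.24 and 0.12, beside 0.02, -0.01 and 0.00 over all genes. With total counts the calls were 60 higher and 35 lower in BNPMT against SEN, beside 57.3% and 25.8% of all genes. In SEN against NC they were 35 higher and 58 lower, beside 24.5% and 56.9%. The medians of the list genes were then 0.31 and -0.21, beside 0.52 and -0.46 over all genes. The same shares of all genes stand behind each list below, and these counts are read only as a description.

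Among 15 tested genes of iron uptake, export and systemic control, 4 were higher and 8 lower in BNPMT against SEN, 10 higher and 4 lower in SEN against NC, and 4 higher and 4 lower in BNPMT against NC. With total counts the first 2 splits were 7 higher and 5 lower, and 4 higher and 6 lower. Steap1, a gene of the STEAP metalloreductase family, had 50.6 ± 5.29 CPM in BNPMT, 10.2 ± 0.938 CPM in SEN and 26.4 ± 0.442 CPM in NC. Its log2 change was 1.80 ± 0.09 in BNPMT against SEN (adjusted p = 6.2e-10). Its relative Steap2 had log2 changes of 0.55 ± 0.06 in BNPMT against SEN and -0.36 ± 0.06 in SEN against NC. Steap3, which reduces iron in the endosome after uptake through the transferrin receptor, was higher in BNPMT than in NC by 0.74 ± 0.06 (adjusted p = 6.14e-07). On the export side, Slc40a1, which encodes the iron exporter ferroportin, fell in BNPMT against SEN by 1.22 ± 0.12 on the log2 scale (adjusted p = 5.35e-07). Heph, a ferroxidase that works with ferroportin, fell by 1.31 ± 0.07 in BNPMT against SEN and by 0.77 ± 0.07 in BNPMT against NC. In SEN against NC, Heph was higher by 0.54 ± 0.07 under TMM and by 0.09 with total counts (adjusted p = 0.278), and Cp, another ferroxidase, was higher by 0.93 ± 0.12. Bmp6, a signal for hepcidin, was lower in BNPMT than in NC by a log2 change of -0.76 ± 0.12.

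Of 32 genes of intracellular iron, heme and iron-sulfur handling, 17 were higher and 11 lower in BNPMT against SEN, 11 higher and 13 lower in SEN against NC, and 15 higher and 5 lower in BNPMT against NC, and with total counts the first 2 splits became 23 higher and 7 lower, and 8 higher and 21 lower.  Hmox1, which frees iron from heme, had log2 changes of -5.75 ± 0.07 in BNPMT against SEN, 5.15 ± 0.07 in SEN against NC and -0.60 ± 0.06 in BNPMT against NC (adjusted p = 5.68e-06). Flvcr1, which encodes a heme exporter, had 13.4 ± 1.54 CPM in BNPMT, 256 ± 7.96 CPM in SEN and 17.9 ± 0.745 CPM in NC. Urod, an enzyme of heme synthesis, had 60.6 ± 2.94 CPM in BNPMT, 10.2 ± 1.08 CPM in SEN and 41.0 ± 1.42 CPM in NC. Abcb8, a mitochondrial transporter gene, fell by 0.88 ± 0.07 in SEN against NC. Bdh2, which encodes an enzyme linked to the mammalian siderophore that lipocalin 2 carries, was higher in BNPMT than in NC by 0.58 ± 0.08 (adjusted p = 4.1e-05), or by 0.24 once the length trend was taken out.

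Among 26 genes listed under ferroptosis defence, 12 were higher and 13 lower in BNPMT against SEN. In SEN against NC 14 were higher and 8 lower, and in BNPMT against NC 12 were higher and 6 lower. Total counts changed the first 2 splits to 13 higher and 9 lower, and 10 higher and 14 lower. The list also holds Keap1, described below, which restrains defence, so the splits count list genes and do not measure defence. Slc7a11, the cystine importer that feeds glutathione synthesis, had 14.6 ± 2.10 CPM in BNPMT, 70.6 ± 12.7 CPM in SEN and 36.6 ± 1.11 CPM in NC. It was lower in BNPMT than in NC by a log2 change of -1.37 ± 0.12 (adjusted p = 1.88e-06), as was its partner chain Slc3a2 by -0.51 ± 0.05 (adjusted p = 4.56e-06). Both cystine carrier chains were thus lower in BNPMT than in NC, while Gpx4 was higher. Gclc, the rate-limiting enzyme of glutathione synthesis, had 33.0 ± 1.65 CPM in BNPMT, 212 ± 5.55 CPM in SEN and 44.1 ± 1.59 CPM in NC, and Txnrd1, a thioredoxin reductase gene, fell by 3.59 ± 0.06 in BNPMT against SEN. Keap1, which holds the antioxidant factor NRF2 in check, had 43.8 ± 0.895 CPM in BNPMT, 10.4 ± 1.08 CPM in SEN and 38.8 ± 0.642 CPM in NC. Coq2, an enzyme of coenzyme Q synthesis, fell by 1.34 ± 0.09 in SEN against NC and was higher by 1.49 ± 0.09 in BNPMT against SEN. Nqo1 and Scd, a quinone reductase and a fatty acid desaturase, were higher in BNPMT than in NC by 0.73 ± 0.07 and 0.56 ± 0.06.

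Of 30 genes listed under ferroptosis drivers and lipid peroxidation, 7 were higher and 17 lower in BNPMT against SEN. In SEN against NC 17 were higher and 9 lower, and in BNPMT against NC 12 were higher and 9 lower. Scaled by total counts, the splits were 16 higher and 12 lower, 11 higher and 15 lower, and 12 higher and 6 lower. These splits count list genes and do not weigh the effect of each gene on ferroptosis. Sat1, a polyamine-degrading enzyme, had 211 ± 14.98 CPM in BNPMT, 1495 ± 71.5 CPM in SEN and 135 ± 11.8 CPM in NC, and Ptgs2, a marker of ferroptosis and of inflammation, had a log2 change of -5.86 ± 0.14 in BNPMT against SEN. Lpcat3, which puts the products of ACSL4 into phospholipids, opposed Acsl4: it had 149.6 ± 5.16 CPM in BNPMT, 34.1 ± 1.60 CPM in SEN and 121 ± 2.93 CPM in NC. Fads1, a desaturase gene of polyunsaturated fatty acid synthesis, fell by 0.79 ± 0.05 in SEN against NC (adjusted p = 4.84e-09) and was higher in BNPMT than in NC by 0.48 ± 0.05. Chac1, which degrades glutathione, was lower in BNPMT than in NC by a log2 change of -0.78 ± 0.07, and Slc38a1, a glutamine carrier, by -0.71 ± 0.07. Map1lc3b, which encodes an autophagosome protein, was higher there by 0.62 ± 0.06.

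Other messages with iron-responsive elements did not share 1 direction. Of 9 tested, 2 were higher and 6 lower in BNPMT against SEN, 5 higher and 4 lower in SEN against NC, and 1 higher and 4 lower in BNPMT against NC, against 3 higher and 4 lower, 3 higher and 4 lower, and 2 higher and 3 lower with total counts. Epas1, the hypoxia factor HIF-2 alpha, had 10.9 ± 1.52 CPM in BNPMT, 83.1 ± 2.68 CPM in SEN and 11.7 ± 1.11 CPM in NC. App, the amyloid precursor, rose by 1.24 ± 0.05 in SEN against NC and fell by 1.38 ± 0.05 in BNPMT against SEN. Slc11a2, the transporter that moves iron out of the endosome, had 52.5 ± 0.402 CPM in BNPMT, 29.3 ± 0.737 CPM in SEN and 45.7 ± 1.39 CPM in NC. Its log2 change was 0.34 ± 0.06 in BNPMT against SEN (adjusted p = 8.78e-05) and 0.15 ± 0.06 in BNPMT against NC (adjusted p = 0.0363), and the second was not called without NC 1, NC 2, NC 3, BNPMT 2 or BNPMT 3 (adjusted p from 0.0531 to 0.146). Against NC, Cdc42bpa and Pfn2, genes of the actin cytoskeleton, were lower in BNPMT by log2 changes of -0.74 ± 0.10 and -0.53 ± 0.07, and Pfn2 was lower in SEN by -0.55 ± 0.07.

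**Figure D5:**
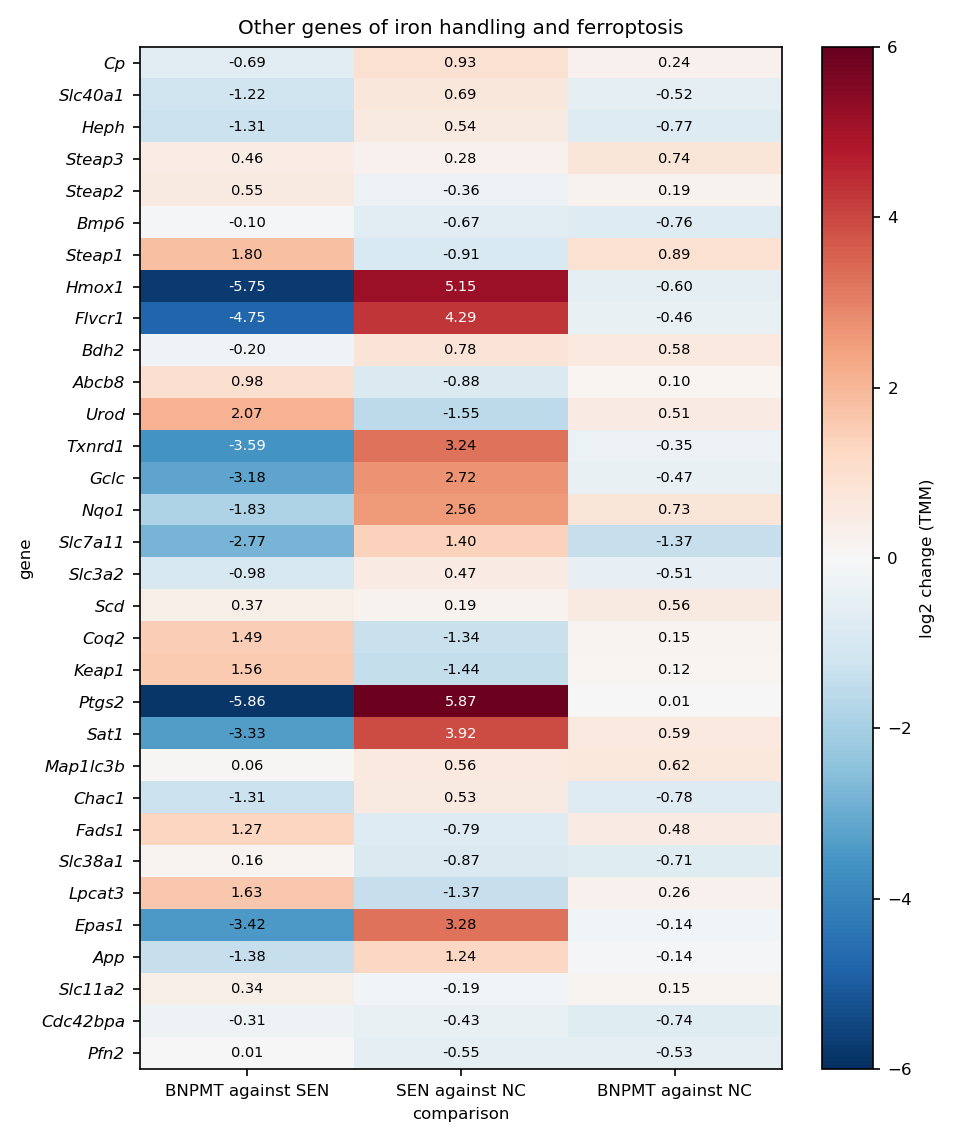
Rows are other genes named from the 5 lists and columns the 3 comparisons, with the TMM-scaled log2 change printed and coloured in each cell. Hmox1, Flvcr1, Txnrd1, Gclc, Sat1, Ptgs2 and Epas1 are positive in SEN against NC and negative in BNPMT against SEN.

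The genes with the nearest pattern were sought for Tfrc, Fth1 and Lcn2, by the distance between 2 differences of group means on the log2 scale (SEN minus NC and BNPMT minus NC) over the 9 libraries. Nearest to Tfrc were Lrrc23 at a distance of 0.0777, the cyclin gene Ccng2 at 0.115 and the coactivator gene Pnrc1 at 0.184. For Fth1 they were the alcohol dehydrogenase gene Adh1 at 0.0547, Ocel1 at 0.0673 and the prelamin A recognition gene Narf at 0.0837. Lcn2 had no such close neighbour among the genes searched. The nearest were Cst6, which encodes a protease inhibitor, at 0.242, the BMP antagonist gene Grem1 at 0.374 and the prostaglandin E synthase gene Ptges at 0.537. The search took only genes with a mean of at least 5 CPM. Lcn2 itself averaged 7.47 CPM in BNPMT, 1.59 CPM in SEN and 1.55 CPM in NC, so genes near its level were left out.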

How the data were processed

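The authors deposited whole-number counts per gene and FPKM values for 9 libraries. Per the labels, RNA was extracted with TRIzol and libraries were built with a VAHTS Universal V6 kit. The tools fastp, HISAT2 and HTSeq and the build mRatBN7.2 are named in the submitters' processing notes. No source used here gives versions, annotation or strandedness, so reads of overlapping or antisense genes cannot be told apart. Transcript lengths were derived from the deposited values, as the median over libraries of CPM over FPKM. FPKM recomputed with them differed by at most 6.66e-16 (relative difference). This shows only that each gene's length was the same in every library and that FPKM is scaled by the library total.

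Genes were kept with filterByExpr and tested with edgeR 4.0.16 in R 4.3.3 with TMM factors, all 9 libraries and 3 group terms, and adjusted p-values of single genes are from that quasi-likelihood test. Standard errors are the log2 change over the root of its F statistic. The 20 alternatives were DESeq2 size factors, the Wald test of DESeq2 1.42.0, total counts, no filter, 1 CPM in 3 libraries, the 2 compared groups, a replicate block, a loess curve along length (span 0.3) taken out of each library, limma 3.58.1 on log2(FPKM + 1) and log2(FPKM + 0.1), which understate changes of low genes, each library left out, and SEN 1 with BNPMT 1 left out.

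The members and lists were chosen with earlier results of these data known, and so were the motifs. Beyond the 9 genes, the text names from each list up to 2 genes per direction with the smallest adjusted p in each comparison, and the 3 nearest patterns among genes of at least 5 CPM with a symbol that is not a placeholder. Some genes that this rule names are not reported here. Promoters are from RefSeq (GRCr8), matched by symbol or gene ID.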

Additional observations from a re-analysis of the deposited data

How the results depend on the processing

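Of the 9 genes, 2 were called lower in SEN against NC, and 4 were with total counts, with log2(FPKM + 1) and with log2(FPKM + 0.1). In BNPMT against SEN 5 were lower, and 2 under each of those settings. Those settings all scale by the library total, so they are not separate checks. Of the list genes, the 55 called higher in SEN against NC became 35 with total counts, 36 with log2(FPKM + 1) and 35 with log2(FPKM + 0.1), the 37 called lower became 58, 58 and 59, and the 53 called lower in BNPMT against SEN became 35 in each. The other counts over the 9 genes and over all lists stayed within 1.5 times, and without single libraries the genes called higher in SEN against NC numbered 4 to 6.

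The sign turned for 3 genes. Gpx4 in SEN against NC was -0.36 with total counts, -0.27 with the length trend taken out, and -0.36 with both FPKM fits. Ncoa4 was -0.29, -0.27 and -0.29 with total counts and the FPKM fits in SEN against NC, and 0.31, 0.29 and 0.31 in BNPMT against SEN, where taking the length trend out gave 0.0037. In BNPMT against NC the turned values were small and none was called. Ncoa4 was 0.021 with total counts, 0.044 with the length trend taken out, 0.019 and 0.020 with the FPKM fits, and -0.067 to 0.011 without single libraries. Acsl4 was -0.0018 with DESeq2 size factors and with its Wald test, -0.024 without NC 1, -0.020 without NC 3, -0.065 to 0.051 without single libraries and -0.070 without SEN 1 and BNPMT 1. The cause was not tested. With the length trend taken out the median of all genes was 0.26, -0.25 and 0.02 in BNPMT against SEN, SEN against NC and BNPMT against NC.

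Correlations of deviations between same-numbered libraries lay between -0.24 and 0.06. Deviations within a group also followed transcript length, in opposite directions between libraries, so these correlations cannot decide whether replicate numbers pair the libraries. With a replicate block the calls among the 9 genes were still 4 higher and 5 lower, 6 higher and 2 lower, and 5 higher and 2 lower in those comparisons, and the list genes 38 higher and 53 lower, 54 higher and 37 lower, and 39 higher and 28 lower. Slc11a2 in BNPMT against NC was not called there (adjusted p = 0.0699), and no other named gene changed its call.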

Other observations

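Further genes of the fixed lists, chosen after their values were seen, include genes of the lipoxygenase family. Aloxe3 averaged 0.407 CPM in BNPMT, 7.68 CPM in SEN and 0.306 CPM in NC, a log2 change of 5.08 ± 0.22 in SEN against NC (adjusted p = 1.14e-10). Alox15 and Alox12 were also called higher in SEN, at only 1.06 and 0.416 CPM. Nox1, an NADPH oxidase gene, averaged 1.46 CPM in BNPMT, 0.0576 CPM in SEN and 0.246 CPM in NC, and its rise in BNPMT against NC passed the test (log2 change 2.49 ± 0.36, adjusted p = 9.36e-05). Iscu, which encodes the scaffold on which iron-sulfur clusters are built, was lower in SEN than in both other groups, averaging 107 CPM in BNPMT, 37.6 CPM in SEN and 67.5 CPM in NC. The biliverdin reductase genes Blvra and Blvrb, which act after Hmox1, moved against it, with log2 changes of -0.91 ± 0.11 and -0.73 ± 0.10 in SEN against NC.

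Transferrin (Tf) averaged 0.0557 CPM in BNPMT, 1.08 CPM in SEN and 0.133 CPM in NC, and hepcidin (Hamp) 0.019 CPM in BNPMT, 0.567 CPM in SEN and 0.0674 CPM in NC. At these low levels both were called higher in SEN against NC, with log2 changes of 3.48 ± 0.47 for Tf (adjusted p = 1.2e-05) and 3.43 ± 0.56 for Hamp (adjusted p = 7.38e-05). Slc22a17, a receptor for lipocalin 2, averaged 33.7 CPM in BNPMT, 30.0 CPM in SEN and 30.0 CPM in NC, and did not pass the test in BNPMT against NC (log2 change 0.12 ± 0.07, adjusted p = 0.153).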
